A study of Mus musculus with 4 samples.

Results

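KAP1 summits at noncoding RNA genes are 330 of the 7641 positions on chromosomes 1 to 19 at which both KAP1 samples placed a peak summit. KAP1, encoded by Trim28, does not bind DNA in a sequence-specific way itself. KRAB zinc finger proteins tether it, and it then recruits histone methyltransferases and deacetylases. Chromatin immunoprecipitation with a KAP1 antibody, followed by sequencing (ChIP-seq), was done in regulatory T cells, a Foxp3-expressing CD4 lineage that holds immune responses in check. These were sorted from C57BL/6 spleens and kept in culture for 2 weeks. The series holds 2 KAP1 samples and 2 input samples without antibody, and the inputs were not analysed here. All samples share strain, tissue and culture, no treatment or genotype is compared, and whether the replicates are separate cultures or animals is not stated in the labels. The deposited lists hold summits and no expression values, so the cell type could not be checked against its markers.

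A summit is the position of highest enrichment in a peak, and it counted as shared when a replicate 2 summit lay within 200 bp of a replicate 1 summit. Members were the shared summits within 1000 bp of the start or end coordinate of a long noncoding RNA (lncRNA) gene and over 1000 bp from every protein-coding gene start or end. The gene table, NCBI RefSeq for GRCm38 (mm10), has 12408 genes of the type lncRNA on chromosomes 1 to 19, and none of the type ncRNA. The deposited lists have 8862 summits in replicate 1 and 79515 in replicate 2, and the read depth behind them is unknown. The rule used the presence of summits in both lists and their positions, so counts and scores of members are given as description and no test was made on them. A wider set of 518 shared summits lay at lncRNA gene ends before the exclusion of coding ends, which removed 188.

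Long noncoding RNAs are transcripts that are not translated into protein. Some act at their site of transcription on neighbouring genes, some act elsewhere in the cell, and for others the act of transcription itself matters. Host genes such as the Snhg family carry small nucleolar RNAs (snoRNAs), which guide the chemical modification of ribosomal RNA, in their introns. Most lncRNA genes in the table are numbered gene models (Gm names) or RIKEN clones with no described function. KAP1 is best known for silencing transposable elements and for its presence at zinc finger gene clusters.

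Of the lncRNA promoter windows given by RefSeq (GRCm38.p6; 250 bases before to 50 after a transcript start), 50 windows of 47 genes held a member summit. The following 5 are the windows of the highest-ranking summits with a window each, and 2 more are shown because their genes, Morrbid and Slc36a3os, are described below. Each runs 5′ to 3′ on the strand of the gene, the transcript start is base 251, and capitals mark matches, on either strand, to 9 short motifs described further on.

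Snhg17 (chr2:158361460-158361759, minus strand) had its summit at base 154. Gm30369 (chr8:3355660-3355959, minus strand) had it at base 94, and Gm40441 (chr12:72844379-72844678, minus strand) at base 123. Gm36077 (chr1:151083871-151084170, minus strand) had it at base 66, and Gm11963 (chr11:5485630-5485929, plus strand) at base 24. Morrbid (chr2:128429302-128429601, minus strand) had it at base 300, the last of its window. Slc36a3os (chr11:55136749-55137048, plus strand) had it at base 268.

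Snhg17: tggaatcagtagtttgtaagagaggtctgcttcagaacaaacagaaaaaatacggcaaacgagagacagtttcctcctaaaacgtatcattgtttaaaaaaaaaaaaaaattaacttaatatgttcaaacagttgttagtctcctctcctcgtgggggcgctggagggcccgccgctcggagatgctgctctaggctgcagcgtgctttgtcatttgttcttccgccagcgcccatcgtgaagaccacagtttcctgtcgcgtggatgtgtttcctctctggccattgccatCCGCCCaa

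Gm30369: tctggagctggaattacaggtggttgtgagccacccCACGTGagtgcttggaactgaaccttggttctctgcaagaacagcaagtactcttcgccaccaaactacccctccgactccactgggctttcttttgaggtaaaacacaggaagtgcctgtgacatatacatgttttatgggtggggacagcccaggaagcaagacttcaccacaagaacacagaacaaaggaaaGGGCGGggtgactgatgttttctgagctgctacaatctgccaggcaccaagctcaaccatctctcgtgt

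Gm40441: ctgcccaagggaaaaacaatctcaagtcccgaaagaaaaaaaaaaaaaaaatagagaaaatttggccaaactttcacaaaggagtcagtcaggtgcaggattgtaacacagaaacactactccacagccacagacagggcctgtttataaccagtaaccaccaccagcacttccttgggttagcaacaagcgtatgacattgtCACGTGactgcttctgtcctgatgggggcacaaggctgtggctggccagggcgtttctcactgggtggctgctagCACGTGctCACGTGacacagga

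Gm36077: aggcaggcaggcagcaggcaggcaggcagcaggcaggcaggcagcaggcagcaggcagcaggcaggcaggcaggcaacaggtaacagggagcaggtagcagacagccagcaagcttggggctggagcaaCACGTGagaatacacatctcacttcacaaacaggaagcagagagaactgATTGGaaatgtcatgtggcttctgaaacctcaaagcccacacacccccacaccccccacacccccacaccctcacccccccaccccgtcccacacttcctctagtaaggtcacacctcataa

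Gm11963: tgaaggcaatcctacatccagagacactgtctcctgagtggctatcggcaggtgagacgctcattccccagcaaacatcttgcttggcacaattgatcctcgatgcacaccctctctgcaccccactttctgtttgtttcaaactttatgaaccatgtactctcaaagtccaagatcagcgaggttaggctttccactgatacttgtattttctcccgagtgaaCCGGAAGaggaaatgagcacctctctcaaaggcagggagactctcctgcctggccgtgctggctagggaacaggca

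Morrbid: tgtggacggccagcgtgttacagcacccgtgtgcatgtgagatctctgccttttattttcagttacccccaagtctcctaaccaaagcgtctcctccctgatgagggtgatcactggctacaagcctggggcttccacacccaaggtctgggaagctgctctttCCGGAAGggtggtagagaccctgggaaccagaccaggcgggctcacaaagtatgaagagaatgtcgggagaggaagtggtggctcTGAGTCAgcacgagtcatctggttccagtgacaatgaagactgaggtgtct

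Slc36a3os: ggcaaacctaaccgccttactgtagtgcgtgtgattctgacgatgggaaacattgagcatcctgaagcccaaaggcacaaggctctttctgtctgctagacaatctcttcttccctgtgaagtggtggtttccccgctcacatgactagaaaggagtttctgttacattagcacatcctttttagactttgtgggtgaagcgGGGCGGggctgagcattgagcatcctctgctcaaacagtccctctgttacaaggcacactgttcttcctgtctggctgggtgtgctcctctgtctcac

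The E-box letters CACGTG, which MYC and USF family factors are known to bind, stood 3 times in the Gm40441 window and once each in those of Gm30369 and Gm36077. The Morrbid window held the AP-1 letters TGANTCA across the transcript start and the ETS letters CCGGAAG upstream of it. The Gm11963 window also held the ETS letters, and those of Snhg17, Gm30369 and Slc36a3os held GGGCGG, the letters of SP and KLF factors, on one strand or the other. Snhg17 has another listed window around the same summit, chr2:158361473-158361772, in which none of the motifs was found. Its start lies 84 bp from the summit, against 97 bp in the window shown.

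The 330 members lay at 323 lncRNA genes, or 2.6% of the 12408 (Wilson 95% interval 2.34 to 2.9%). A single lncRNA gene lay within reach of 319 members, and 11 lay near a pair of genes. Of the genes, 305 had 1 member and 18 had 2, which was the most at any gene. Members made up 4.32% of the 7641 shared summits (3.89 to 4.8%). The windows that the rule allows cover 1.78% of the chromosome extent. Of the 71340 replicate 2 summits without a replicate 1 partner, 2.3% lay in the same windows (2.19 to 2.41%), and of the 1137 replicate 1 summits without a replicate 2 partner, 4.93% did (3.81 to 6.34%). The rule's windows thus held a larger share of the shared summits than of the summits found in replicate 2 alone. The intervals for shared summits and for those of replicate 1 alone overlapped. Of the replicate 1 summits at the rule's positions, 330 of 386 were shared (85.5%), against 87% of all replicate 1 summits on these chromosomes and 88.3% of those at coding gene ends. No test was made of these differences, and the intervals cover counting error only.

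Counted per gene, lncRNA genes stood between coding genes and most small RNA genes. Without the exclusion of coding ends, 501 of the 12408 lncRNA genes had a shared summit within 1000 bp of an end (4.04%, 3.71 to 4.4%). The share was 8.94% of 20665 coding genes, 19.2% of 391 tRNA genes, 2.79% of 931 small nuclear RNA genes, 2.2% of 1136 microRNA genes, 1.71% of 1286 snoRNA genes and 0.63% of 8884 pseudogenes. The tRNA genes lie in clusters, so that 1 summit can serve several of them. The windows at both ends of a short gene overlap, so small RNA genes were searched over fewer bases than lncRNA genes (median length 8393.5 bp). The shares were not corrected for this, and their order per base was not examined.

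**Figure D1:**
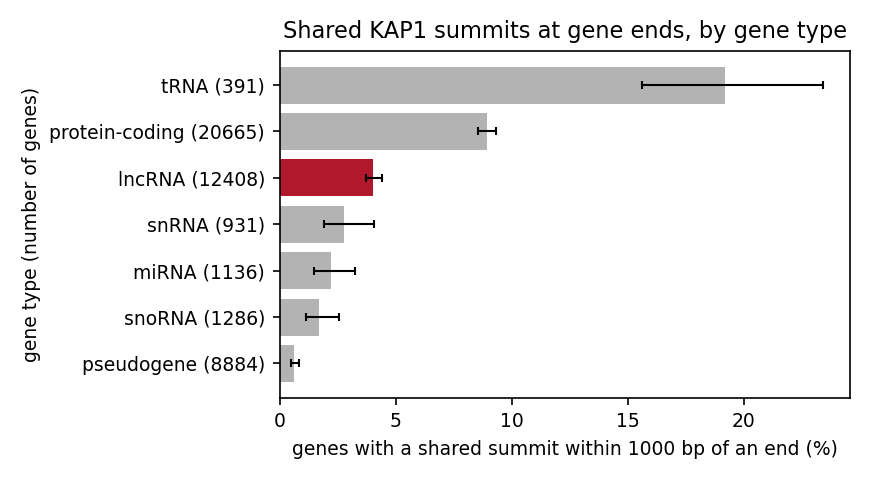
Share of genes of each type on chromosomes 1 to 19 with a shared KAP1 summit within 1000 bp of an end, in percent (bars, Wilson 95% intervals as lines; number of genes in brackets). The lncRNA genes, in red, stand at 4.04%, below coding genes at 8.94% and tRNA genes at 19.2%, and above pseudogenes at 0.63%. Shares are per gene and not corrected for gene length.

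The scores of members covered much of the range of the lists. A score is the authors' own value for a summit, the −log10 of its p or q, and is compared only within its list. Values in brackets after a gene are its replicate 1 and replicate 2 scores. In replicate 1 the members ranged from 2.27 to 103.4, with a median of 8.34 and quartiles of 5.10 and 14.6. In replicate 2 they ranged from 3.35 to 129.1, with a median of 12.9 and quartiles of 7.95 and 26.2. Shared summits at coding gene ends had medians of 8.34 and 12.8, and those at neither kind of end 8.29 and 12.3, and these medians lay within the 95% order-statistic intervals of the members' medians (7.64 to 8.72 and 11.2 to 14.6). Many replicate 1 scores are tied, which makes their medians coarse. The 1639 summits of replicate 2 alone in the same windows had a median of 8.31 and reached 48.4.

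The paired summits lay close together, at a median of 6 bp, and 205 of the 330 pairs (62.1%) were within 10 bp, 35 of them on the same base. Other shared summits were alike, with a median of 6 bp both at coding ends and at neither, and 63.9% and 63.3% within 10 bp. Spearman's rank correlation between the replicate scores was 0.766 across the 330 sites, as a description of sites that share their libraries. It was 0.804 at coding ends and 0.756 at neither. Both scores lay in the highest 10% of their lists at 42 members, or 12.7%, against 13.7% of shared summits at coding ends and 10.7% of those at neither.

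**Figure D2:**
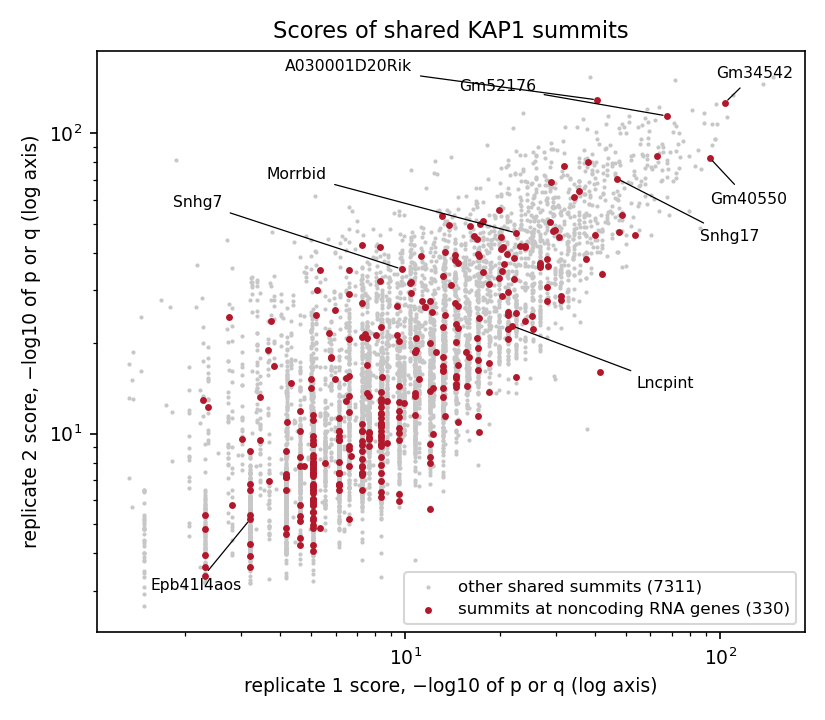
Replicate 2 score against replicate 1 score (both −log10 of p or q, log axes) of the 330 summits at noncoding RNA genes (red) and the other shared summits (grey), with some genes named. Members lie throughout the grey cloud, between 2.27 and 103.4 in replicate 1 and between 3.35 and 129.1 in replicate 2.

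Members were ranked by the percentile of each score within its whole list, averaged over the replicates, and gene models led the first 12. All 12 had scores of at least 35.7 in replicate 1 and 45.7 in replicate 2. Gm34542 had the member with the highest replicate 1 score, which lay on chromosome 2 at position 170319438 and 213 bp within the gene, with scores of 103.4 and 126.1. Its nearest coding gene was Bcas1, 24535 bp away. The summit of Gm40550, at position 96399799 of chromosome 9, lay 185 bp inside the 3′ end and scored 92.5 and 82.8. It was 35368 bp from Atp1b3, which encodes a beta subunit of the sodium pump.

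Gm52176, within the sodium channel gene Scn8a on chromosome 15, had its summit at position 100905162, 23 bp inside the 3′ end (67.8 and 114.1). Gm52095 had one at position 27405647 of chromosome 14, 235 bp beyond its 3′ end (63.1 and 84.1). That summit was 1731 bp from Arhgef3. These 4 gene models stood in the same order by mean rank as by replicate 1 score, whereas replicate 2 placed A030001D20Rik highest of all members.

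A030001D20Rik, a RIKEN clone inside Rasip1 on chromosome 7, had its summit at position 45635481, 91 bp beyond the 3′ end, with scores of 40.7 and 129.1. Snhg17, a snoRNA host gene, had the highest-ranking member at a gene that is not a numbered gene model, at position 158361606 of chromosome 2 (47.0 and 70.6). That summit fell on the same base in both replicates, 84 bp upstream of the gene and 28754 bp from Lbp. The replicate summits also fell on 1 base at Gm40096, at position 95523838 of chromosome 3 (48.6 and 53.5). This summit lay 2948 bp from Ctss, the gene of the lysosomal protease cathepsin S.

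Gm30369, inside the exchange factor gene Arhgef18 on chromosome 8, had a summit 157 bp upstream of its start (53.6 and 45.7). Gm52493, on chromosome 4 and 6979 bp from the histone methyltransferase family gene Prdm2, had one at position 143219748 (47.8 and 46.8). The summit of Gm5464 lay at position 66869205 of chromosome 14, within Dpysl2, and scored 38.1 and 80.2. Platr22, whose name comes from transcripts associated with pluripotency, had one 967 bp upstream of its start, at position 136695244 of chromosome 1 and 64853 bp from Zfp281 (39.9 and 45.7). Gm29243 on chromosome 8, 45272 bp from Saraf, had 2 members, at positions 34216119 (35.7 and 64.2) and 34216813 (22.5 and 15.5). Of the 12 summits, 4 lay inside a coding gene. Of the 8 whose lncRNA gene has a known strand, 5 lay at the 3′ end and 3 at the 5′ end.

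Over all members, summits were denser near the gene ends, and at the 5′ end more often than the 3′ end. The median distance to the nearer end of the lncRNA gene was 365 bp (quartiles 118 and 651 bp), and 152 members (46.1%) were inside the gene. Within 100 bp of an end lay 70 members, or 21.2% (17.1 to 25.9%), where an even spread over the window would give 10%. Within 250 bp lay 39.7% (34.6 to 45.1%), where an even spread would give 25%. The even spread takes no account of short genes or overlapping windows. The summits of replicate 2 alone in the same windows were at 17.2% (15.5 to 19.1%) and 31.9% (29.7 to 34.2%), with a median distance of 446 bp. Their interval overlapped that of the members within 100 bp and not within 250 bp. The 56 summits of replicate 1 alone in these windows were at 16.1% (8.69 to 27.8%) and 30.4% (19.9 to 43.3%), with a median of 456 bp, and these intervals overlapped those of the members.

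The strand of the gene was known, from the RefSeq promoter table, for 248 members. Of these, 161 lay at the 5′ end (64.9%, 58.8 to 70.6%) and 87 at the 3′ end. Among the summits of replicate 2 alone in the same windows, 46.4% of 1180 lay at the 5′ end (43.6 to 49.3%), and among those of replicate 1 alone 23 of 39 did (59.0%, 43.4 to 72.9%). Shared summits at coding gene ends lay at the 5′ end in 87.7% of 1358 cases. The 95% interval of the members' 5′ share overlapped that of replicate 1 alone and not that of replicate 2 alone; no test was made. The median replicate 2 score was 11.5 at 5′ ends and 15.2 at 3′ ends, and the median replicate 1 score was 8.34 at both. Among the 83 highest-ranking members, 36 of 61 with a strand lay at the 5′ end (59.0%, 46.5 to 70.5%), and among the 83 lowest-ranking 47 of 64 did (73.4%, 61.5 to 82.7%).

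Measured to the nearest listed transcript start, 163 members lay within 1000 bp, 80 upstream and 83 at or downstream of it. Their median position was 4 bp downstream. The 100 bp just upstream of the start held 19 members and the 100 bp from the start onwards held 16, more than any other 100 bp of the window.

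**Figure D3:**
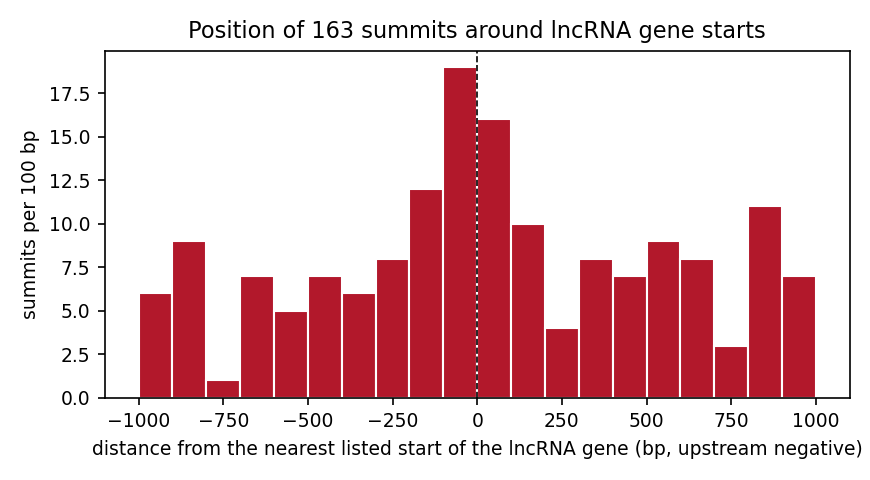
Number of summits per 100 bp (vertical axis) by distance from the nearest listed start of their lncRNA gene (horizontal axis, bp, upstream negative), for the 163 summits within 1000 bp. The highest bars, of 19 and 16 summits, flank the start.

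Members ranged from inside coding genes to over 100 kb from the nearest one, and these distances are given for members alone. Outside coding genes altogether lay 226 members, at a median of 15618.5 bp from the nearest one. Of these, 86 were within 10 kb of a coding gene and 24 were over 100 kb away, up to 329722 bp for the summit of Gm19585, whose nearest coding gene was Satb1, a chromatin organiser of T cells. The other 104 members (31.5%, 26.7 to 36.7%) lay inside a coding gene, over 1000 bp from its ends. The share was 31.4% for replicate 2 alone in the same windows. A second shared summit lay within 5 kb of 70 members (21.2%), against 18.1% of all shared summits. Chromosome 15 had the highest share of members among its shared summits (7.26%, 26 of 358) and chromosome 18 the lowest (2.56%, 5 of 195).

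Morrbid is a lncRNA that in mouse myeloid cells restrains its neighbour Bcl2l11, the gene of the death-promoting protein BIM. Morrbid runs on the minus strand of chromosome 2 from 128298663 to 128429351. Its start region held 2 members. The stronger, at position 128429302, lay 49 bp inside the 5′ end and scored 22.5 in replicate 1 and 46.5 in replicate 2. The weaker, at position 128430156, lay 805 bp upstream and scored 4.32 and 14.7. Further shared summits lay inside the gene at positions 128422849 (8.34 and 10.8), which is itself a member through Gm14010, and 128325698 (5.10 and 7.27). The nearest coding gene to the 2 members at the start, Spdye4c, was 161899 and 161045 bp away.

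Lncpint, a lncRNA induced by p53, had a member 738 bp inside its 5′ end, at position 31217736 of chromosome 6 (21.8 and 22.8). The gene held shared summits also at positions 31190774 (21.2 and 29.2) and 31169052 (5.10 and 6.97). Its nearest coding gene, Mkln1, was 181092 bp from the member. Mirt1, a transcript named for myocardial infarction, had members at both ends, on chromosome 19 at positions 53464843 (7.25 and 6.46, 47 bp upstream of the start) and 53441531 (6.16 and 7.40). Mirt1 was chosen after its values were seen.

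Among classes of gene names, the snoRNA host genes had the largest share with a member. Of 20 genes named Snhg, Gas5 or Epb41l4aos, 5 had a member (25%, 11.2 to 46.9%), against 2.45% of 9878 numbered gene models, 2.97% of 1750 RIKEN clones, 2.33% of 300 LOC genes, 2.42% of 207 opposite-strand genes and 5.02% of 239 genes with other symbols. None of 14 microRNA host genes had one. By coordinates, 107 lncRNA genes enclose a snoRNA gene, and 8 of them had a member (7.48%, 3.84 to 14.1%). With coding ends allowed, 15 of the 107 had a shared summit at an end (14%, 8.68 to 21.8%), against 4.04% of all lncRNA genes. Epb41l4aos was assigned to the snoRNA hosts although its name ends like those of opposite-strand genes. Hosts with other names, such as Dancr, stayed in other name classes. The intervals are wide because the classes are small, and no test was made between classes.

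Besides Snhg17, the snoRNA hosts with members had mostly modest scores. Snhg7 had its summit 705 bp inside the gene, at position 26639539 of chromosome 2 (9.73 and 35.3). It lay 218 bp from the snoRNA gene Snora17. Snhg16 had one 365 bp upstream of its start (6.16 and 8.06). Snhg12 had one towards its 3′ end, 102 bp from Snora61 (7.25 and 7.29). Epb41l4aos had the weakest, 41 bp outside the gene (3.21 and 5.19). Of the genes that host snoRNAs by coordinates alone, chosen after their values were seen, 1110038B12Rik had a summit 492 bp upstream of its start (24.0 and 42.0), AA465934 one 151 bp inside its start (14.4 and 37.8) and Dancr, a lncRNA that holds back differentiation of progenitor cells, one 530 bp upstream (5.10 and 7.40).

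Of 50 names of lncRNAs and related RNAs studied in lymphocytes or in chromatin, 44 were found in the table, and 34 were lncRNA genes on chromosomes 1 to 19. A member lay at 5 of the 34, namely Morrbid, Lncpint, Snhg12, Snhg16 and Epb41l4aos, where the background over all lncRNA genes is 2.6%. Snhg12, Snhg16 and Epb41l4aos are also among the snoRNA hosts counted above, so the counts share these genes. The list was chosen with earlier results of these data known, and no test was made of the difference. Snhg1 had a shared summit 40 bp inside the gene (38.3 and 53.6), but this lies 158 bp from the end of Slc3a2 and is therefore no member. Pvt1, the lncRNA gene next to Myc, held 3 shared summits in its body, the nearest 1157 bp from an end. Zfas1 held 1, at 1193 bp from an end (14.6 and 18.9). No shared summit lay at the ends or in the body of Malat1, Neat1, Gas5, Mir155hg or Mir17hg, and the nearest were 8435, 4802, 92978, 20098 and 3883265 bp away.

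No member lay within 1000 bp of a microRNA gene. The share of all shared summits that close to one was not counted, so this absence is no trait particular to members. Counted per gene and not per summit, 25 of all 1136 microRNA genes (2.2%) had a shared summit that close. Of 26 listed lymphocyte microRNA genes on these chromosomes 1 did, Mir142, at 673 bp. By coordinates, 3 of 105 lncRNA genes that enclose a microRNA gene had a member (2.86%, 0.976 to 8.07%), against 2.6% of all lncRNA genes, and 6 had a shared summit at an end with coding ends allowed (5.71%). These were Gm38984 (5.79 and 17.8), 2900076A07Rik (5.10 and 7.71) and Gm45968 (2.31 and 3.60). The microRNAs they enclose are shown to identify them, with the seed, bases 2 to 8, in capitals. No seed was shared among them.

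mmu-miR-7050-5p in Gm38984: aCAGGAGAagggggugagaga

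mmu-miR-7050-3p in Gm38984: uCUCAGCCuuuaucuccccag

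mmu-miR-1839-5p in 2900076A07Rik: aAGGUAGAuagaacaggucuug

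mmu-miR-5118 in Gm45968: aAGGUUAGgccagccuggu

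Transfer RNA genes stood within 1000 bp of 8 of the 330 members. Of all 391 tRNA genes, 75 (19.2%) had a shared summit that close. The share of all shared summits near a tRNA gene was not counted, so the 8 are no trait particular to members. The strongest of these, at position 23432675 of chromosome 13 (42.1 and 34.0), lay 621 bp from the end of Gm40833 and 315 bp from the tyrosine tRNA gene n-TYgta7. The summit by Gm39918 at position 122375482 of chromosome 2 (21.1 and 25.4) lay 12 bp from the tRNA gene n-THgtg4, and that by Gm32298 at position 21170029 of chromosome 13 (8.29 and 32.2) lay 7 bp from n-TLaag7. At these 3 sites the summit was closer to the tRNA gene than to the end of the lncRNA gene. The remaining sites are not described here.

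Opposite-strand genes, named for a coding gene they run against, had members at 5 of 207 genes. Slc36a3os had 2, one 17 bp inside its start (14.6 and 10.9) and one 595 bp upstream (3.02 and 9.60). Slc36a1os had one 530 bp upstream (6.64 and 15.6) and Kif16bos one 113 bp inside its start (7.64 and 10.1). Bach2os, within Bach2, the gene of a transcriptional repressor in lymphocytes, had one 694 bp inside its 3′ end (4.17 and 8.77). The other gene, Hk1os, had scores of 2.31 and 3.35; Bach2os and Hk1os fall outside the rule for named genes. All 5 had replicate 1 scores below 15. Among RIKEN clones, 5031434O11Rik in Setd7 (29.4 and 47.4) and D330023K18Rik near Gpr107 (31.3 and 27.8) ranked next after A030001D20Rik. The LOC genes ranked lower, led by LOC115487747 (13.2 and 16.1), LOC115487419 (13.2 and 13.2) and LOC115490435 (8.40 and 15.4). Gm52900, inside Osbpl3, had members at both ends (22.2 and 32.8 at the start, 18.4 and 13.8 beyond the 3′ end).

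The following members are examples whose nearest coding gene is known in T cells. They were picked after their values were seen, from no fixed list and with no distance limit, and how often other shared summits lie by such genes was not counted. Gm32435, 1653 bp from Tgfbr1, which encodes a TGF-beta receptor, had a summit 745 bp beyond its 3′ end (37.4 and 38.0). Gm51710 within Smad3, a transducer of TGF-beta signals, had one 68 bp beyond its 3′ end (22.2 and 38.6). Gm31869, 13649 bp from the Fas ligand gene Fasl, had one 460 bp inside its start (21.0 and 39.5). Gm41950 had 2 at its 3′ end (17.0 and 17.6, and 8.34 and 22.7), at 39389 and 38531 bp from the chemokine receptor gene Cxcr4. Gm26876 lay inside Ikzf4, the gene of the transcription factor Eos, and had a summit 72 bp after its start (15.7 and 14.3).

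Further examples were picked in the same way. Gm34649 had a summit 446 bp upstream of its start and 4954 bp from Ctla4 (4.61 and 7.82), and 2310016D23Rik one 442 bp inside its start and 5544 bp from Cd28 (5.36 and 4.84). Gm16008, 4660 bp from Tnfrsf4, which encodes OX40, scored 9.50 and 6.31, and Gm30120, 18863 bp from Tnfrsf9, scored 5.10 and 11.1. Lockd, a lncRNA downstream of the cell cycle inhibitor gene Cdkn1b, had one 363 bp upstream of its start and 3204 bp from Cdkn1b (5.10 and 11.5).

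The promoter windows with a member were poorer in CpG than coding windows with a shared summit. The 50 windows had a median of 6 CpG dinucleotides in 300 bases (quartiles 4 and 8) and 50.7% G and C. The 594 coding windows with a shared summit had a median of 19.5 (13 and 25) and 57.7%. The 9732 lncRNA windows without a shared summit that lie over 1000 bp from coding ends had a median of 3 (2 and 6) and 47.7%. At least 55% G and C with an observed-to-expected CpG ratio of 0.65 or more, a usual mark of CpG islands, was met by 3 of the 50 windows (6%), 53.5% of the coding windows and 3.40% of the other lncRNA windows. The windows were chosen by holding a summit, and the rule's exclusion of coding ends also leaves out windows shared with coding promoters. Windows of 1 gene or of neighbouring genes can overlap, and the 50 windows held 46 summits. The promoter table covers 246 of the 323 member genes (76.2%), so a check of base composition over all member genes would be void, and the values are those of the windows alone.

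**Figure D4:**
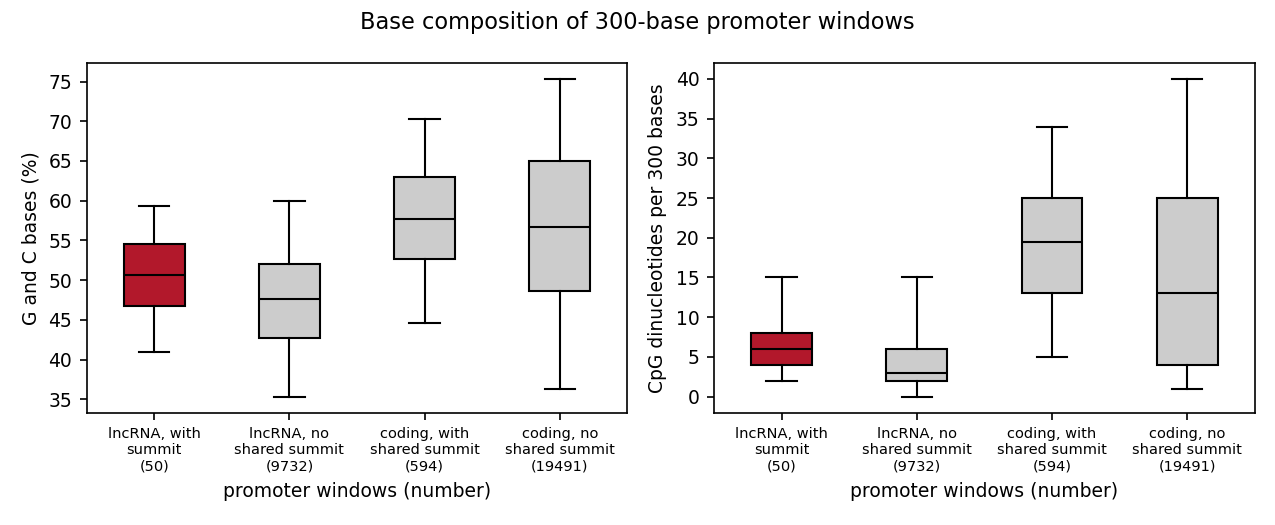
G and C content in percent (left) and number of CpG dinucleotides per 300 bases (right) of promoter windows; boxes give quartiles and the median, whiskers the 5th and 95th percentiles, and numbers of windows are in brackets. The lncRNA windows with a summit (red, median 6 CpG) lie far below coding windows with a shared summit (19.5) and nearer to lncRNA windows without one (3), which here are those over 1000 bp from coding ends; coding windows without a shared summit are drawn for scale (13).

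Short motifs were counted in the same windows on both strands. The letters were CCGGAAG for ETS factors, TGTGGTT for RUNX, GGGCGG for SP and KLF, TGCGCA for NRF1, TGACGT for CREB and ATF, TGANTCA for AP-1, CACGTG for E-box factors, CCAAT for NF-Y and AAGATGG for YY1; N is any base, and matches of different motifs may overlap. The AP-1 letters stood in 10 of the 50 windows (20%, 11.2 to 33.0%), against 9.94% of lncRNA windows without a shared summit away from coding ends, 4.04% of coding windows with one and 7.84% of all 31396 windows. The RUNX letters stood in 7 (14%, 6.95 to 26.2%), against 6.69%, 5.89% and 5.32%. The SP and KLF letters stood in 8 (16%, 8.34 to 28.5%), against 10.7%, 53.9% and 36.0%, so fewer windows held them than among coding windows with a shared summit. The ETS letters stood in 4 (8%, 3.15 to 18.8%), against 2.86%, 32.0% and 9.0%.

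The other motifs are given in the same order of sets. The NF-Y letters stood in 11 windows (22%, 12.8 to 35.2%), against 36.3%, 37.0% and 37.3%. The CREB and ATF letters stood in 5 (10%, 4.35 to 21.4%), against 5.10%, 14.1% and 7.57%. The E-box letters also stood in 5 (10%, 4.35 to 21.4%), against 5.40%, 10.1% and 7.14%. The NRF1 letters stood in 4 (8%, 3.15 to 18.8%), against 3.15%, 15.3% and 7.76%. The YY1 letters stood in 1 (2%, 0.354 to 10.5%), against 6.64%, 6.90% and 6.38%. The windows of Gm12758 and Gm12762 overlap on opposite strands around 1 summit. They share a site with the NRF1 letters and a site with the SP and KLF letters, each counted in both windows. The intervals treat all windows as independent. No motif was found in 13 of the 50 windows, counted as windows and not as summits or genes. These include overlapping windows of F730311O21Rik around 1 summit, and a window of Snhg17 whose other window held GGGCGG. A match says only that the letters are present, and G and C content differs between the sets. Other letters that these factors may bind were not counted, so a low share does not mean that a family lacks sites there.

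**Figure D5:**
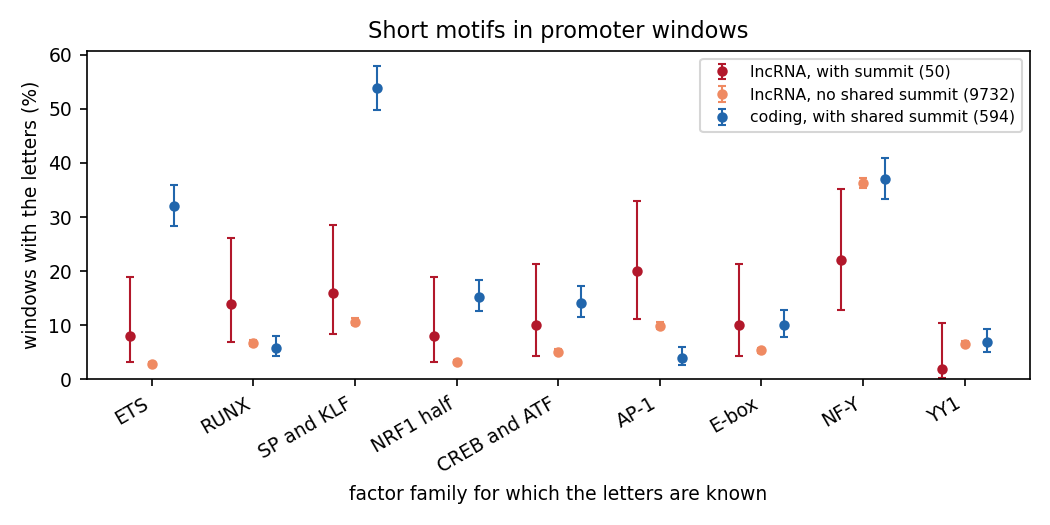
Share of promoter windows that hold the letters known for each factor family, in percent with Wilson 95% intervals, for the 50 lncRNA windows with a summit (red), lncRNA windows without a shared summit away from coding ends (orange) and coding windows with a shared summit (blue). The SP and KLF and the ETS letters are at 53.9% and 32.0% in the blue set and 16% and 8% in the red, and the AP-1 letters stand at 20% in the red set and 4.04% in the blue.

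At the limits of the rule, the member farthest from its gene end was by Gm35037 at 993 bp (13.4 and 11.5), and the nearest shared summit outside the window was by Gm38883 at 1001 bp (6.16 and 9.52). The member nearest a coding gene end was by Gm51551 at 1034 bp (17.1 and 39.1), and the nearest one excluded for it was by Gm27042 at 975 bp (5.10 and 6.98). The widest pair of summits among members was 199 bp apart, by Gm38709 (2.80 and 5.78), and the narrowest that missed the limit was 225 bp apart, by Gm30603 (2.31 and 4.61).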

How the data were processed

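Summit lists of 2 KAP1 ChIP-seq samples were used. Per the labels' protocols, sonicated fragments between 150 and 400 bp were size-selected. The submitters' processing notes name MACS2 2.2.1, Picard 2.1.1, Bowtie2 2.2.9 and mm10. How these were run, and whether peaks were called against the inputs, is not stated there. The authors deposited 1 list per KAP1 sample, with a −log10 p-value or q-value score for each summit. Positions are 1-based. Read depth is unknown.

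Genes and promoter sequences came from NCBI RefSeq tables (GRCm38.p6, which shares its chromosome coordinates with mm10). Summits were paired and placed with Python 3.11.15, pandas 2.3.3 and NumPy 2.4.6, and intervals were computed with SciPy 1.17.1. The rule was checked on simulated summits. Strand came from the promoter table. Percentile ranks were taken within each whole list. Named genes were the 12 top-ranking members with their nearest coding genes, up to 3 per name class, listed genes with a member, the 3 genes with most members and the sites at the limits, besides those said to be chosen after their values were seen. The members and lists were chosen with earlier results of these data known. With 1 group of samples, no test between samples was made. Alternatives changed the distances, windows, scores, lists and chromosomes.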

Additional observations from a re-analysis of the deposited data

How the results depend on the processing

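The count of 330 members was between 226 and 339 with shared distances of 50 and 500 bp, a coding distance of 5000 bp, positions outside coding genes, chromosome X added and members within 1000 bp merged (values within 1.5 times). It was 203 with lncRNA end windows of 500 bp, 654 with 2500 bp, 518 with coding ends allowed, 187 with scores at or above the list medians and 145 with replicate 2 reduced to its 8862 highest scores. In the same order the share of lncRNA genes was 1.61%, 5.09%, 4.04%, 1.49% and 1.18%; it was 1.93% with a coding distance of 5000 bp and 1.81% outside coding genes. With either replicate's list alone, leaving out the other, the count was 386 (replicate 1) or 1970 (replicate 2) and the share 2.90% or 14.8%. The deposited replicate 2 list is the longer one. The median distance to an end was 167 bp with windows of 500 bp and 978.5 bp with 2500 bp, where the window itself bounds the distance. Median scores and the share inside the gene moved by less than their 95% intervals. The count of listed genes with a member was 5 or 6 and that of promoter windows 46 to 51, under alternatives chosen after seeing the data. No paired analysis was possible because the KAP1 samples form 1 group and the inputs have no list here. Depth is not recorded, so what it limits is unknown.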
